A study of Mus musculus with 6 samples.

Results

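Svop and Ano3 are 2 of the 54532 genes measured by RNA-seq in mouse ovarian granulosa cells (GCs). They were selected on the difference between cyclophosphamide (CTX) and PBS in these same libraries, where both were near 0 after PBS and clearly read after CTX, so that difference is described here and carries no test. CTX is an alkylating drug whose active metabolites crosslink DNA, and GCs are the somatic cells that surround the oocyte in the follicle. All animals were 3-week-old ICR females injected with 5 IU of PMSG, a gonadotropin that drives follicle growth, 22 h before the treatment. The CTX group then received 120 mg/kg CTX and the PBS group received PBS, both intraperitoneally, and GCs were taken 6 h later. Each group held 3 samples and each sample pooled the GCs of 3 mice, so differences between single animals were averaged, and a single dose and time were sampled. The libraries held 16005869 to 18455011 reads on genes, rebuilt from the FPKM values (fragments mapped to a gene, per kilobase of its length and scaled to depth) that the authors deposited. CTX replicate 2 stood apart from the other 5 samples, with a score of 74.7 on the first principal component against -26.6 to 13.2 (46.8% of the variance). Its FPKM values summed to 626 over the 6 theca and luteal markers, against 2546 to 3933 in the others, and Cyp11a1, of progesterone synthesis, stood at 14.4 FPKM there. Hsd3b1 made up 607 FPKM of this sum, and Insl3 was not lower there (0.814 FPKM, against 0.270 to 0.396 FPKM after PBS). The paper counts Star and Cyp11a1 among luteinization-related genes of GCs, so the sum is not specific to theca or luteal cells. The folds of Svop and Ano3 and the main counts are also given without CTX replicate 2. In these samples, labelled as GCs, all 10 granulosa markers passed the expression filter. They summed to 12580 to 13820 FPKM after PBS and 10794 to 11600 FPKM after CTX. Inha was most of each sum, at 9205 to 10402 FPKM after PBS and 8556 to 9180 FPKM after CTX. Single markers differed more. Cyp19a1 was at 59.2 to 62.4 FPKM after PBS and 47.6, 6.61 and 32.5 FPKM in CTX replicates 1 to 3. Foxl2 was at 184 to 193 FPKM and then 145, 76.9 and 107 FPKM. Amh went the other way, at 48.4 to 51.1 FPKM and then 54.3, 179 and 85.5 FPKM.

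Svop (synaptic vesicle 2-related protein) belongs to the major facilitator superfamily of membrane transporters and is a relative of the SV2 proteins of synaptic vesicles. It is known from neurons and neuroendocrine cells, and its substrate is not established. Ano3 (anoctamin 3, also called TMEM16C) belongs to the anoctamin family, in which some members are calcium-activated chloride channels and others are calcium-dependent scramblases that move lipids between the leaflets of a membrane. It is known mainly from neurons, where it associates with the sodium-activated potassium channel encoded by Kcnt1. Neither gene is a textbook marker of GCs.

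Svop (ENSMUSG00000042078) lies on the minus strand at chr5:114026910-114091570 of GRCm38 and spans 64.7 kb, with 4556 exonic bases and 5 annotated transcripts. Its longest coding transcript has 16 exons and encodes 548 amino acids. Ano3 (ENSMUSG00000074968) lies on the minus strand at chr2:110655201-110950923 and spans 296 kb, with 7218 exonic bases and 3 annotated transcripts. The longest coding transcript of Ano3 has 27 exons and encodes 981 amino acids. Reads are given per gene, over all its exonic bases, and are not assigned to a transcript. The first 120 coding bases of the longest coding transcript of each gene are shown to identify that transcript, with the start codon in capitals. Those of Svop lie in exon 1 at chr5:114091152-114091186 and in exon 2 at chr5:114065602-114065686, and those of Ano3 lie in exon 1 at chr2:110950058-110950103 and in exon 2 at chr2:110884972-110885045.
Svop coding start: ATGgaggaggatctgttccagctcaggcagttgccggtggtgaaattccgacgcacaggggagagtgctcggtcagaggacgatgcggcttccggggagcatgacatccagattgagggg
Ano3 coding start: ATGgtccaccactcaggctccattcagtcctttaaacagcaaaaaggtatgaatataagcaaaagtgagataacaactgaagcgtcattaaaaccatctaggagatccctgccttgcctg
GC content was 57.2% over the coding sequence of Svop and 43.1% over that of Ano3, so the genes differed in base composition as well as in chromosome and family. Of the 50-base windows of the Svop transcript, 3.36% also occurred in a transcript of another gene, where the longest such run was 161 bases of Usp30 on the opposite strand. For the Ano3 transcript the share was 0.225%, and the longest run was 64 bases of Muc15 on the opposite strand. No shared run of 50 bases or more was found with another member of either family. The library kit and the counting are not described as strand-specific in the sources used here, so reads on the 161 exonic bases that Svop shares with Usp30 (3.53% of its exonic bases) or on the 61 that Ano3 shares with Muc15 (0.845%) cannot be assigned to one gene.

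Svop went from almost no reads after PBS to clear read counts after CTX. The PBS samples held 0, 4 and 1 Svop reads (replicates 1 to 3) and the CTX samples held 109, 68 and 111. As FPKM these were 0, 0.0479 and 0.0136 after PBS and 1.32, 0.841 and 1.36 after CTX. All 3 CTX samples were above all 3 PBS samples, the lowest CTX value being 17.6 times the highest PBS value. The mean was 0.0205 ± 0.0247 FPKM after PBS and 1.17 ± 0.289 FPKM after CTX (SD, n = 3), a 57.3-fold difference. Summed over each group, 5 reads after PBS (95% Poisson interval 1.62 to 11.7) stood against 288 after CTX (256 to 323). The ratio of the summed reads, scaled to depth, was 56.1, with an interval of 23.8 to 174 that covers counting error only. Because 4 of the 5 PBS reads came from 1 library, the fold rested on PBS replicate 2, and it was 173 without that library and 38.2 to 65.4 when any other library was left out.

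Ano3 was low, but not absent, after PBS. It had 13, 9 and 4 reads after PBS and 216, 97 and 219 after CTX. In FPKM the values were 0.101, 0.0680 and 0.0342 after PBS and 1.65, 0.757 and 1.69 after CTX. The groups did not overlap, and the lowest CTX value was 7.49 times the highest PBS value. The mean was 0.0678 ± 0.0334 FPKM after PBS and 1.37 ± 0.529 FPKM after CTX (SD, n = 3), a 20.2-fold difference. The summed reads were 26 (95% Poisson interval 17.0 to 38.1) and 532 (488 to 579), with a depth-scaled ratio of 19.9 (13.4 to 30.8). Leaving out 1 library at a time gave folds of 16.2 to 26.8. Since every PBS library held Ano3 reads, the description as switched on fits Svop more closely than Ano3, for which a low level that became higher is the measured pattern.

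**Figure D1:**
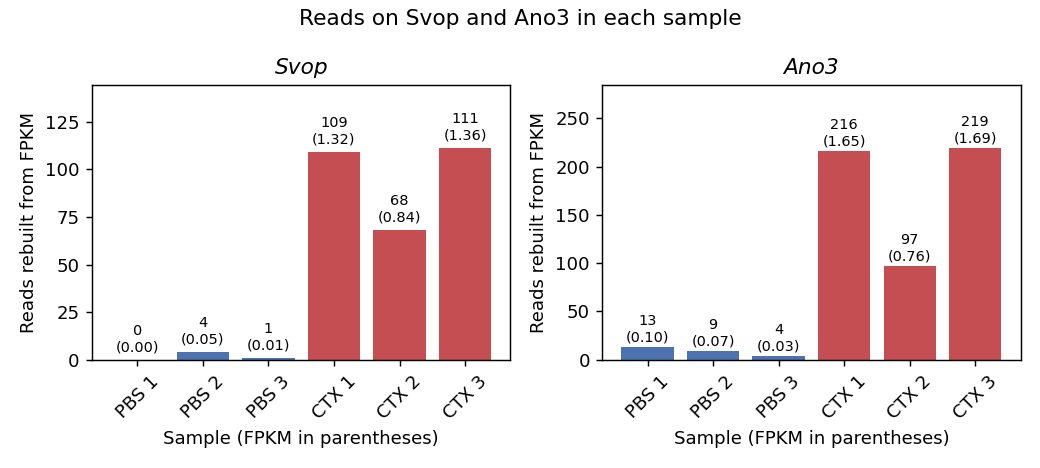
Reads on Svop (left) and Ano3 (right) in the 3 PBS samples (blue) and the 3 CTX samples (red), with FPKM in parentheses; each bar is 1 sample of pooled GCs. Svop ranged from 0 to 4 reads after PBS and from 68 to 111 after CTX, and Ano3 from 4 to 13 and from 97 to 219, with CTX replicate 2 the lowest CTX sample for both.

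Even after CTX both genes were modestly expressed. The mean FPKM of Svop was above that of 27.6% of the protein-coding genes after PBS and above 50.8% of them after CTX. For Ano3 the shares were 34.0% and 51.9%. Per unit of length, Ano3 was at 1.25 times the FPKM of Svop in CTX replicates 1 and 3 and at 0.900 times in CTX replicate 2, so their levels after CTX were alike and their order differed between samples. Over the 6 samples the log2(FPKM + 0.1) values of the 2 genes correlated with r = 0.98, which is a description: both genes were chosen for the same difference between groups, and the points share the libraries. In RNA of bulk GCs, more cells with these transcripts and more transcripts per cell cannot be told apart.

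Within the CTX group both genes were lowest in replicate 2. Svop there was at 0.628 times the mean FPKM of CTX replicates 1 and 3, and 11.3% of the 14463 genes tested had a lower ratio. Ano3 was at 0.453 times, with 6.42% of the tested genes lower, while the median over the tested genes was 1.01. The coefficient of variation among the CTX samples was 24.6% for Svop and 38.7% for Ano3. Without CTX replicate 2 the fold over PBS was 65.4 for Svop and 24.7 for Ano3. Among 30 targets of p53, the transcription factor activated by DNA damage, this ratio had a median of 0.778 and ran from 0.557 (Dcxr) to 1.91 (Gadd45a, a stress-induced growth arrest gene). Of the 114 other genes called higher after CTX, 10 had a ratio below that of Svop and 2 a ratio below that of Ano3, and their median was 0.926. The theca and luteal marker sum was also lowest in CTX replicate 2, as given above, and its leukocyte marker sum was the highest (65.5 FPKM against 19.3 to 34.7 in the other 5 samples). The part of these differences in the Svop and Ano3 levels was not tested.

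**Figure D2:**
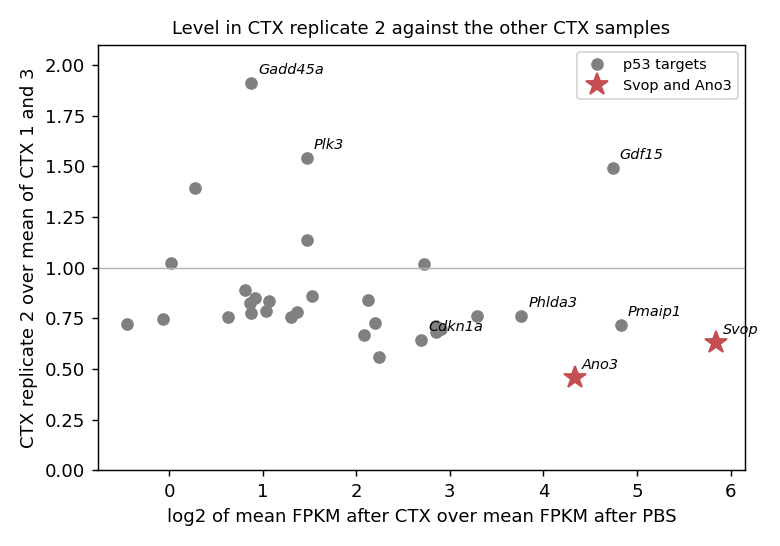
For each of 30 p53 targets (grey) and for Svop and Ano3 (red stars), the horizontal axis gives log2 of the mean FPKM after CTX over that after PBS and the vertical axis the FPKM in CTX replicate 2 over the mean of CTX replicates 1 and 3. Svop (0.628) and Ano3 (0.453) lie below the line at 1, Ano3 lower than each of the p53 targets, and Gdf15 (1.49) is an example of a strongly higher gene above that line.

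Against the whole table, few genes shared the size of these differences. With at least 10 reads in each CTX sample, 17 genes had a mean FPKM more than 10 times higher after CTX, and Svop was the third of them and Ano3 the ninth. Celf5, an RNA-binding protein of the CELF family, came first, with a ratio of summed reads of 102 (95% interval 34.7 to 498), followed by Alox5, the 5-lipoxygenase of leukotriene synthesis (88.1, 24.0 to 733). Between Svop and Ano3 stood Sec14l5 (40.4, 15.5 to 150), the chemokine Cxcl10 (33.6, 8.95 to 283), the BH3-only apoptosis gene Pmaip1 (28.3, 17.5 to 49.1), the growth factor Gdf15 (26.7, 20.8 to 34.8) and the potassium channel gene Kcnj4 (21.9, 5.72 to 186). The ratios of Celf5, Alox5, Sec14l5, Cxcl10 and Kcnj4 rest on 2 to 4 PBS reads in all, and with such intervals most neighbours in this order cannot be ranked. The order describes the values that chose Svop and Ano3. For reference, limma on log2(FPKM + 0.1) over the 14463 genes with a mean of at least 0.5 FPKM called 116 genes higher (0.802%) and 23 lower (0.159%), a call being an adjusted p under 0.05 and a change of more than 2-fold. Without CTX replicate 2 the counts were 143 and 58. The 116 genes include Svop and Ano3. Both were chosen on this contrast and passed the filter only through their CTX values, so their calls carry no test. Every CTX sample was above every PBS sample for 15% of the tested genes and below for 14.1%. The median log2 difference over the tested genes was -0.008.

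Going from almost unread to clearly read was rare in either direction. Of 36320 genes with at most 5 reads in every PBS library, 17 had at least 10 in every CTX library (0.0468%), 14 of them protein-coding. In the opposite direction, 9 of 36156 genes with at most 5 reads in every CTX library had at least 10 in every PBS library (0.0249%). Without CTX replicate 2 these counts were 32 and 11, under a rule that then asks less. Svop was among the 17, and Ano3 was not, because 2 of its PBS libraries held 9 and 13 reads. Only Svop and Ccl3 of the 17 passed the expression filter of the fit, so the others were not tested.

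The 17 genes were of several kinds. Celf5 (2, 0 and 1 reads after PBS, and 98, 51 and 166 after CTX), Alox5 (0, 1 and 1, then 70, 40 and 71) and Sec14l5 (0, 3 and 1, then 62, 24 and 80) had the most reads beside Svop, and all 3 were lowest in CTX replicate 2 among the CTX samples, as Svop was. Kcnj4, an inward rectifier potassium channel of excitable cells, had 0, 1 and 1 reads after PBS and 18, 17 and 10 after CTX. The synaptic adhesion gene Lrrtm2 had 4, 4 and 5, then 16, 22 and 19. The chemokine genes Cxcl10 (1, 1 and 0, then 13, 31 and 25) and Ccl3 (2, 5 and 4, then 14, 25 and 10) and the macrophage gene Aif1 (1, 5 and 4, then 11, 16 and 11) were highest in CTX replicate 2 among the CTX samples. Ciita, the activator of MHC class II genes (4, 3 and 5, then 20, 13 and 20), was lowest there. Ccl3 differed by 1.74 ± 0.44 (SE) on the log2 scale and was not called (adjusted p = 0.124, limma). Its mean was 0.275 FPKM after PBS and 1.19 FPKM after CTX, so it passed the filter only through its CTX values. As the read rule uses the same contrast, this p-value carries no test. Beside these values, the summed leukocyte markers were 19.3 to 23.1 FPKM after PBS and 34.7, 65.5 and 24.9 FPKM in CTX replicates 1 to 3, and their part in the counts was not tested. Of the 7 markers, Lyz2 (13.1 to 14.3 FPKM after PBS and 14.7 to 45.8 FPKM after CTX), Cd68 (2.59 to 3.69 and 3.91 to 8.97) and Cd14 (0.821 to 1.25 and 2.46 to 3.23) were higher in every CTX sample than in every PBS sample, as were 15% of all tested genes. C1qa (1.84 to 3.68 and 2.90 to 5.80), Csf1r (0.528 to 0.692 and 0.640 to 0.915) and Adgre1 (0.225 to 0.236 and 0.207 to 0.870) overlapped between the groups. Ptprc, the gene of the pan-leukocyte antigen CD45, was at 0.098 FPKM or less in each of the 6 samples. Among the 9 genes of the opposite pattern, the oestrogen sulfotransferase Sult1e1 had 50, 136 and 64 reads after PBS and 3, 0 and 0 after CTX and was called lower in the fit (adjusted p = 0.0099, limma). Its mean was 3.80 FPKM after PBS and 0.0444 FPKM after CTX, so it passed the filter only through its PBS values. Having been picked on this contrast as well, Sult1e1 has a call that carries no test. The call was lost without PBS replicate 1, 2 or 3 (adjusted p = 0.052, 0.077 and 0.088, limma), and in 5 of 16 alternatives in all.

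**Figure D3:**
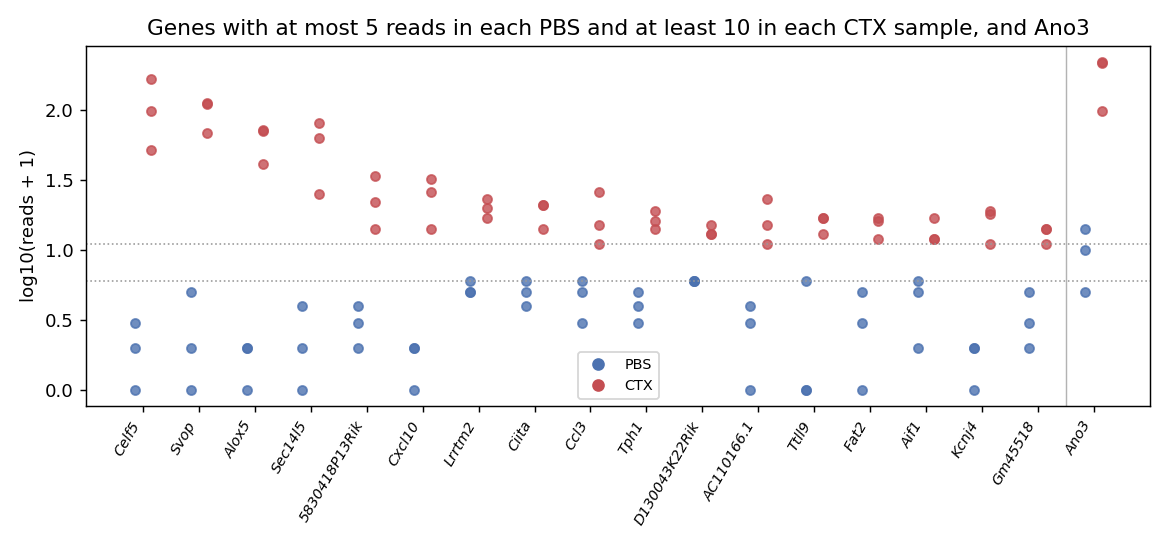
Reads per sample on a log10(reads + 1) scale for the 17 genes with at most 5 reads in each PBS sample (blue) and at least 10 in each CTX sample (red), and for Ano3 to the right of the vertical line; the dotted lines mark 5 and 10 reads. Svop is second from the left at 0 to 4 and 68 to 111 reads, 13 of the 17 genes stayed under 40 reads in every library, and Ano3 crosses the dotted lines after PBS with 4 to 13 reads.

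The genes around Svop and Ano3 were compared to show whether the differences extended along the chromosome, with the same fit and all its genes. Within 500 kb of Svop the table held 35 other genes, 29 with reads and 16 tested, and none was called in either direction. Their log2 differences ran from -1.17 to 0.32 with a median of -0.10, and 3 had an unadjusted p under 0.05 (Ficd, Acacb and Iscu), as did 19.6% of all tested genes. Within 500 kb of Ano3 there were 29 other genes, 8 with reads and 1 tested, the coiled-coil gene Ccdc34, whose log2 difference was -0.04 ± 0.12 (SE; adjusted p = 0.879, limma). With 0.802% of all tested genes called higher, a count of 0 among 17 tested neighbours is close to the background and says little about them as a group.

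Usp30, a mitochondrial deubiquitinase gene that overlaps the start of Svop on the plus strand, had 608, 686 and 568 reads after PBS and 651, 731 and 654 after CTX. Its log2 difference was 0.09 ± 0.09 (SE; adjusted p = 0.582, limma), so its reads were many where Svop had 0 to 4 and changed little where Svop had 68 to 111. Dao, the D-amino acid oxidase gene that lies 1.23 kb beyond the end of Svop, stayed at 1 to 3 reads in each of the 6 libraries. Upstream of Svop lay a pair of DNA repair genes. Ung, the uracil-DNA glycosylase gene, differed by 0.32 ± 0.23 on the log2 scale (adjusted p = 0.453), and Alkbh2, an alkylation damage demethylase gene, by -0.21 ± 0.09 (adjusted p = 0.274, limma for both), with 754, 771 and 722 Ung reads after PBS and 715, 1353 and 922 after CTX, which overlap. Acacb, the mitochondrial acetyl-CoA carboxylase gene, differed by -0.48 ± 0.16 (adjusted p = 0.189, limma). Ficd, an AMPylation enzyme gene of the endoplasmic reticulum, differed by -0.58 ± 0.09 (adjusted p = 0.035, limma), below the 2-fold limit of a call and opposite in sign to Svop. Around Ano3, the genes nearest to it were almost unread in both groups. Muc15, a membrane mucin gene inside Ano3 on the plus strand, had 0 reads in each PBS library and 0, 2 and 3 after CTX. Slc5a12, a lactate transporter gene 7.42 kb beyond its end, had 0, 0 and 3 reads after PBS and 3, 1 and 6 after CTX. Fibin had 12, 9 and 16 and then 10, 17 and 7 reads, and Bbox1, of carnitine synthesis, 4, 3 and 0 and then 7, 2 and 2. These counts are too low to show whether such a neighbour differed by less than several-fold.

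**Figure D4:**
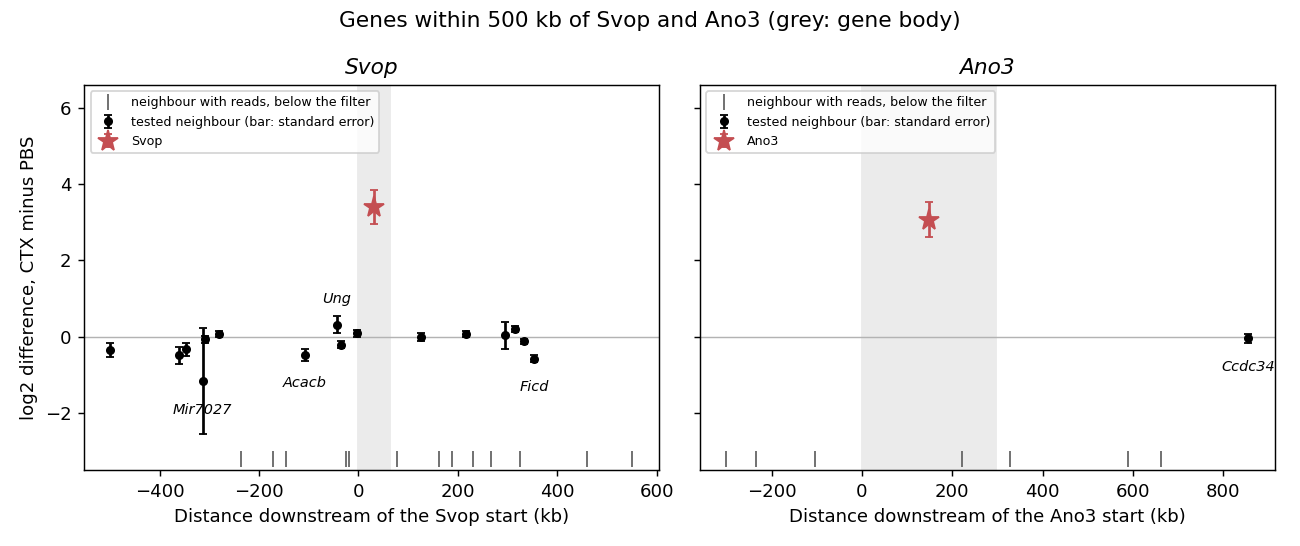
Log2 difference (CTX minus PBS, on log2(FPKM + 0.1), limma) with its standard error for the tested genes within 500 kb of Svop (left, 16 genes) and Ano3 (right, 1 gene), placed by the distance of each gene's midpoint from the gene's start in kb, downstream to the right; grey marks the gene body, ticks the neighbours with reads below the filter, and the red star the gene itself, as a description. The tested neighbours lie between -1.17 (Mir7027, a microRNA locus with few reads and a wide error) and 0.32, and Svop and Ano3 lie at 3.39 and 3.07.

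The nearest relatives of both genes were then compared, to show whether the families were affected as a whole. Among the 4 other SV2 and SVOP transporters, amino acid identity to Svop was 37.9% for Svopl, 30.2% for Sv2b, 28.5% for Sv2a and 28.2% for Sv2c. The relatives did not share the difference of Svop. Sv2a, the widely expressed SV2 form, was at 1.22, 0.894 and 0.852 FPKM after PBS and at 0.750, 0.377 and 0.734 FPKM after CTX. Its groups did not overlap, with lower values after CTX, as for 14.1% of the tested genes, and the log2 difference was -0.63 ± 0.32 (SE; adjusted p = 0.318, limma). Sv2c had 0.839, 0.720 and 0.675 FPKM after PBS and 0.813, 0.302 and 0.714 FPKM after CTX, which overlap (log2 difference -0.33 ± 0.37, SE; adjusted p = 0.634, limma). Sv2a and Sv2c were lowest in CTX replicate 2, as Svop was within its group. Svopl, the closest relative, stayed at 0.115 FPKM or less in every sample, and Sv2b at 0.013 FPKM or less. After CTX, Svop thus had the highest FPKM of the 5 genes in each sample, whereas after PBS Sv2a and Sv2c had the highest values.

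Among the 9 other anoctamins, identity to Ano3 was 64.8% for Ano4 and 30.5% to 45.3% for the others. Of these, 5 passed the filter and none was called, with a median log2 difference of -0.09. Ano4, the closest relative, was already expressed after PBS at 15.2, 15.6 and 15.8 FPKM. After CTX it was at 15.5, 42.1 and 24.3 FPKM, so its values overlapped the PBS range in CTX replicate 1 and were highest in CTX replicate 2, where Ano3 was lowest. Its log2 difference was 0.69 ± 0.33 (SE; adjusted p = 0.302, limma). The calcium-activated chloride channel gene Ano1 differed by -0.22 (adjusted p = 0.432), the scramblase gene Ano6 by -0.09 (adjusted p = 0.686), Ano8 by -0.24 (adjusted p = 0.428) and Ano10 by 0.15 (adjusted p = 0.409, limma for all 4). Ano2, Ano5, Ano7 and Ano9 were at 0.136 FPKM or less in each sample.

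**Figure D5:**
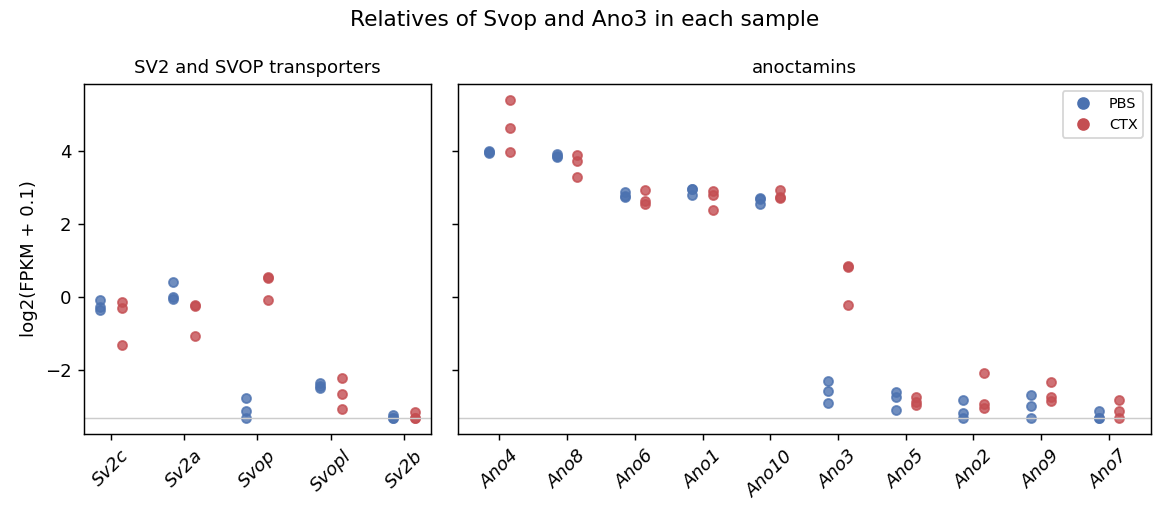
Log2(FPKM + 0.1) of each sample (PBS blue, CTX red) for the 5 SV2 and SVOP transporters (left) and the 10 anoctamins (right), ordered by level; the horizontal line marks 0 FPKM. Svop and Ano3 have CTX values well apart from their PBS values, Ano4 spreads from 15.5 to 42.1 FPKM after CTX, and Svopl, Sv2b, Ano2, Ano5, Ano7 and Ano9 lie near the line in both groups.

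The settings in which the 2 proteins are known to work were also examined. Of 42 synaptic vesicle and exocytosis genes, 22 were tested, none was called, and 3 had an unadjusted p under 0.05 (19.6% of all tested genes), with a median log2 difference of -0.05. The SNARE gene Vamp2 stood at 24.5 to 29.2 FPKM after PBS and 24.4 to 24.7 FPKM after CTX, while Syt1, the calcium sensor of fast release in neurons, was at 0.068 FPKM or less and Snap25 at 0.109 FPKM or less in each sample. The widest value was that of Slc18a2, the vesicular monoamine transporter, at 22.2, 20.6 and 20.2 FPKM after PBS and 16.7, 123 and 56.6 FPKM after CTX, a log2 difference of 1.22 ± 0.67 (SE; adjusted p = 0.351, limma). It was called when CTX replicate 1 was left out (adjusted p = 0.043, limma), and without CTX replicate 2 the difference was 0.55 (adjusted p = 0.562, limma). Its order within the CTX group was the reverse of that of the complexin gene Cplx1, at 16.6, 1.60 and 12.9 FPKM.

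For Ano3, the list held 14 lipid scramblase and flippase genes and Kcnt1. Of the 15, 11 were tested and none was called, with a median log2 difference of -0.07 and 2 unadjusted p-values under 0.05, again beside 19.6% of all tested genes. Kcnt1, the partner channel known from neurons, was expressed at 9.45, 9.78 and 7.54 FPKM after PBS and 6.61, 5.44 and 8.23 FPKM after CTX (log2 difference -0.41 ± 0.17, SE; adjusted p = 0.266, limma), so it was read in every sample, also where Ano3 was near 0. The flippase subunit gene Tmem30a was the highest of the list, at 47.4 to 50.4 FPKM after PBS and 35.9 to 47.7 FPKM after CTX. Xkr8, a scramblase gene that caspases activate at the protein level, was at 1.34, 1.75 and 1.43 FPKM after PBS and 1.52, 0.797 and 1.06 FPKM after CTX (adjusted p = 0.388, limma).

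Since both genes are known from neurons, the neuron and neuroendocrine markers were set beside them. The 13 markers summed to 48.4 to 61.9 FPKM after PBS and to 55.1, 74.7 and 62.1 FPKM in CTX replicates 1 to 3. Most of this was Uchl1, at 36.8 to 66.0 FPKM, a gene also expressed outside the nervous system. The neurofilament genes Nefl and Nefm were at 0.033 FPKM or less in each sample, and Stmn2 at 0.050 FPKM or less. Map2, a microtubule-associated protein gene, was at 2.64, 2.45 and 2.19 FPKM after PBS and 2.88, 4.90 and 2.91 FPKM after CTX. All 3 CTX samples of Map2 were above all 3 PBS samples, as for 15% of the tested genes. Chgb went the other way, at 1.17, 1.21 and 1.22 FPKM after PBS and 0.866, 0.679 and 0.957 FPKM after CTX. All 3 CTX samples of Chgb were below all 3 PBS samples, as for 14.1% of the tested genes. Tubb3 was at 4.96 to 6.13 FPKM after PBS and at 6.35, 1.51 and 4.06 FPKM after CTX. Rbfox3, the gene of the neuronal marker NeuN, was at 0.441 to 0.675 FPKM after PBS and at 0.854, 0.165 and 0.393 FPKM after CTX, and overlapped between the groups. The part of these markers in the levels of Svop and Ano3 was not tested. Glia and Schwann cell markers summed to 11.0 to 11.8 FPKM after PBS and to 12.8, 9.15 and 13.8 FPKM after CTX. Of the other cell types, stroma and muscle markers summed to 18.8 to 19.7 FPKM after PBS and to 35.9, 25.3 and 33.0 FPKM after CTX, endothelial markers to 7.62 to 7.96 and to 6.37, 3.19 and 6.81, and oocyte markers to 35.0 to 74.0 and to 48.5, 85.1 and 83.0. The stroma and muscle sum was higher in all 3 CTX samples than in all 3 PBS samples. In CTX replicate 2 most of it was Acta2 (20.5 FPKM, against 7.66 to 8.60 FPKM after PBS), while Col1a1 (2.65 FPKM against 8.18 to 9.58), Dcn (1.08 against 1.21 to 1.51) and Pdgfra (0.354 against 0.446 to 0.591) were there below every PBS sample. The part of these markers in the levels of Svop and Ano3 was not tested.

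The tested genes whose log2(FPKM + 0.1) followed Svop most closely over the 6 samples were Atf3 (r = 0.998), Zfp365 (r = 0.998), Tnfaip3 (r = 0.997), Egr2 (r = 0.996) and Gne (r = 0.994). Those most like Ano3 were Notch3, Fbxo30, Igsf9b and Apaf1 (r = 0.998 each) and Slc27a3 (r = 0.997). With 6 samples in groups that differ, and with the highest of 14463 correlations chosen, such values are a description and have no p. The choice also favours genes that differ between CTX and PBS. The differences and calls given next come from the fit over all genes, follow in part from this choice and carry no separate test. Atf3, a stress-induced transcription factor, was at 2.42, 3.67 and 2.67 FPKM after PBS and 27.1, 18.8 and 34.1 FPKM after CTX, and it rose by 3.13 ± 0.25 (SE) on the log2 scale (adjusted p = 0.0034, limma). Egr2, an immediate-early transcription factor, rose by 3.02 ± 0.13 (adjusted p = 7.9e-04, limma). Notch3, a Notch receptor, was at 0.377, 0.305 and 0.238 FPKM after PBS and 5.23, 1.93 and 4.90 FPKM after CTX, lowest in CTX replicate 2 among the CTX samples, as Ano3 was, and rose by 3.23 ± 0.40 (adjusted p = 0.019, limma). The mean of Notch3 was 0.307 FPKM after PBS and 4.02 FPKM after CTX. It thus passed the filter only through its CTX values, so its call carries no test. This call was lost without PBS replicate 1, 2 or 3 or CTX replicate 3 (adjusted p = 0.087, 0.102, 0.105 and 0.089, limma), and in 6 of 16 alternatives in all. Apaf1, the scaffold of the apoptosome, was at 5.01, 5.04 and 4.51 FPKM after PBS and 9.55, 7.74 and 9.26 FPKM after CTX. Its difference of 0.85 on the log2 scale (adjusted p = 0.019, limma) was under the 2-fold limit.

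Apaf1 and Zfp365 were also members of the list of 30 p53 targets, of which 18 were called higher and none lower, also 18 without CTX replicate 2, with a median log2 difference of 1.39. Over all tested genes 0.802% were called higher and 0.159% lower, and the median was -0.008. The largest were Gdf15 (4.50 ± 0.26, SE), Pmaip1 (3.99 ± 0.23) and Phlda3 (3.67 ± 0.13). On the same scale Svop differed by 3.39 and Ano3 by 3.07, which are descriptions. Most starting levels were not alike, since all 30 p53 targets had a mean of at least 0.1 FPKM after PBS, against 0.0205 FPKM for Svop and 0.0678 FPKM for Ano3. Pmaip1 (0.123 FPKM, from 6, 6 and 5 reads) and Fas (0.175 FPKM, from 8, 8 and 1 reads) were also near the floor after PBS. Ano3 had 13, 9 and 4 reads there. Pmaip1 and Fas passed the filter only through their CTX values, so the call of Pmaip1, among the 18, carries no test.

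The promoter sequence could be read for Ano3 alone, since the RefSeq table (GRCm38.p6; 250 bases before to 50 after a start) held 2 Ano3 windows and no entry for Svop. The first start lies 679 bases downstream of the GENCODE start, so its window at chr2:110950195-110950494 falls in exon 1 of the longest Ano3 transcript, in its 5′ UTR, and is not printed. The second window, at chr2:110840010-110840309 on the minus strand, lies in an intron of that transcript. It is shown because it precedes an Ano3 start and overlaps no Ano3 exon of GENCODE, with a TATAAA match in capitals.
Ano3 second start: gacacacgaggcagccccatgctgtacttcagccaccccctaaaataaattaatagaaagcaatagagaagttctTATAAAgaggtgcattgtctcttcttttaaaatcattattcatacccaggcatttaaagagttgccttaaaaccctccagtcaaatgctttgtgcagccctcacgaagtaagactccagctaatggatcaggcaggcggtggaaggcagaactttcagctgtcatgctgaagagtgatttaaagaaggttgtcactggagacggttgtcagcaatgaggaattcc
GC content was 52% in the first window and 43.7% in the second, against a median of 52.7% over 32851 promoters, and the ratio of observed to expected CpG was 0.395 and 0.280 against a median of 0.384. On both strands, neither window held the p53 half-site (8.36% of all promoters held one), a pair of half-sites 0 to 13 bases apart (0.0731%), the AP-1 motif TGANTCA (7.81%) or the cyclic AMP response element TGACGTCA (1.79%). The TATAAA match in the second window is of a kind found in 13.6% of promoters. FPKM per gene does not tell from which start the Ano3 reads came.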

How the data were processed

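RNA-seq was measured in 6 samples of GCs, 3 per group, which were grouped by their labels. The authors deposited FPKM values per gene, and their own group means, log2 fold changes and p-values of CTX against PBS are also in the table and were not used. The submitters' processing notes list CASAVA 1.8, fastp, HISAT2 2.0.5, featureCounts 1.5.0-p3, DESeq2 1.20.0 and the mm10 build, with no roles or strand setting. The deposited group means are a signal on the scale of normalized reads, per the file headers.

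Reads were rebuilt from FPKM times gene length divided by the value of 1 read, and 100% came out whole within 0.01 read. The libraries held 16005869 to 18455011 reads on genes, and 3 reads on 1 kb of gene correspond to 0.164 to 0.185 FPKM, and the intervals given take account of counting error alone. Genes with a mean of at least 0.5 FPKM were compared as log2(FPKM + 0.1) with limma 3.58.1 (lmFit and eBayes with trend, R 4.3.3) over all 6 samples, two-sided with Benjamini-Hochberg adjustment, a scale on which the change of genes as low as Svop and Ano3 comes out too small. Each sample pools different mice, and p-values measure the spread between these pools. The fit was tested on simulated reads with the same spread in both groups. The real CTX samples differed more from each other than the PBS samples did, so the simulation does not give the error rates in these data. Neighbours, exons and transcripts were taken from GENCODE M21 on GRCm38, which held 54495 of the 54532 gene identifiers, 98.33% of them with identical boundaries. Identity was computed from translated coding sequences with Biopython 1.88. Python 3.11.15 with pandas 2.3.3 and SciPy 1.17.1 was used for the rest.

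The genes named are drawn from Svop and Ano3, genes with reads within 500 kb, both families, and the called members and 3 highest of the other lists. Genes off in one group and on in the other, and the 5 genes most correlated with Svop or with Ano3, complete this rule. Not every gene under the rule is printed. Vamp2, Cplx1, Kcnt1 and Xkr8 are list members named outside it. Dao, Syt1, Snap25 and the marker genes named, the genes over 10-fold, and the comparison within the CTX group were chosen after their values were seen. Both members and all lists were chosen with earlier results of these data known. The alternatives were other pseudocounts, filters, scalings, read limits and windows, voom, arrayWeights, eBayes without trend, a replicate block and each sample left out. Samples with the same replicate number came from different mice, and their deviations from the group means correlated by 0.006 to 0.056, so that the reported fit has no block. The labels do not say whether such samples shared a batch.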

Additional observations from a re-analysis of the deposited data

How the results depend on the processing

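The 17 tested neighbours and the tested relatives in the SV2 and SVOP, anoctamin and scramblase lists had 0 calls under all alternatives, within 250 kb and 1000 kb also. The p53 list had 12 to 20 called members, against 18 in the reported fit. The synaptic vesicle list had 0 calls, and 1 (Slc18a2) with arrayWeights or without CTX replicate 1 (0 to 1 with each sample left out). Over all genes, 116 called higher and 23 lower became 48 and 2 with the replicate block, which paired samples by replicate number, and 366 and 291 with arrayWeights. With each sample left out the counts were 57 to 143 higher and 1 to 70 lower, and a filter at a mean of 5 FPKM left 7 lower. The differences of Svop and Ano3, 3.39 and 3.07 on the log2 scale, were 1.08 and 1.12 with a pseudocount of 1 and 5.60 and 4.16 with 0.01, as the pseudocount itself sets the floor of both genes. At most 3 reads off and at least 20 on left 3 genes on after CTX (Celf5, Alox5 and Sec14l5; Svop had 4 reads in PBS replicate 2) and 1 off, and leaving out each sample gave 22 to 44 and 11 to 26, a looser rule by construction. Of 1650 alternatives for 99 named genes, 52 lost and 15 gained a call and 0 reversed. Depth limits the PBS levels, since 1 read on Svop is worth 0.0120 to 0.0136 FPKM.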
